A study of Mus musculus with 6 samples.

Results

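The 6 genes described here are Malat1, Neat1, Gas5, Pvt1, Mir17hg and Kcnq1ot1, long noncoding RNA genes of the autosomes, measured in leukaemic blasts of mice. They were chosen by name from a table of 24454 genes, with the levels in these same libraries already known, and all 6 were in the table and passed the filter on low values. The table held 2086 genes annotated as long noncoding RNA, of which 469 passed that filter, set at 10 normalized counts or more in 3 or more libraries. Because Malat1 is among the 17 genes that DESeq2 called between the groups (0.135% of 12624; 9 higher, 0.0713%, and 8 lower, 0.0634%), the differences of the 6 genes are given as a description, with no test.

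RNA was sequenced from 3 Stat3β TG and 3 WT samples of blasts driven by MLL-AF9, a fusion oncogene of acute myeloid leukaemia. The Stat3β TG blasts descended from fetal liver cells of C57BL/6 mice that carry Mx1-Cre and a Stat3β transgene, and the WT blasts from fetal liver cells of wild-type C57BL/6 littermates. Alternative splicing of Stat3 gives the truncated isoform Stat3β, and Cre is driven by the interferon-inducible Mx1 promoter. In both groups the cells received an MLL-AF9 retrovirus and were grown in NSG mice, recipients without their own T, B and NK cells. All recipients were given poly(I:C), an inducer of interferon, at week 4, and the blasts were sorted from bone marrow at week 6 as cells positive for the Venus reporter. The labels list Mx1-Cre for the Stat3β TG cells alone, so effects of Cre and of Stat3β cannot be told apart. They do not say that replicates came from separate donors, so a p-value measures only the spread between these samples.

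Long noncoding RNAs act without being translated. Malat1 is an abundant nuclear RNA of the splicing speckles, and Neat1, its neighbour on the chromosome, is the scaffold around which paraspeckles form. Gas5 and Mir17hg are host transcripts, the first of small nucleolar RNAs in its introns and the second of the miR-17-92 cluster of oncogenic miRNAs, while Pvt1 lies beside Myc, and Kcnq1ot1 is the antisense RNA that silences imprinted genes on the paternal chromosome.

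The host transcript Mir17hg matters through the miRNAs it carries, so the mature sequences of its cluster are shown, from RefSeq on GRCm38.p6. They lie on the plus strand of chromosome 14, from 115043684 to 115044496. Each is written 5′ to 3′ with its seed, bases 2 to 8, in capitals.
mmu-miR-17-5p: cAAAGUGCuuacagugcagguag
mmu-miR-20a-5p: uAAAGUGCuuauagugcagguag
mmu-miR-18a-5p: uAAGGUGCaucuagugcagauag
mmu-miR-19a-3p: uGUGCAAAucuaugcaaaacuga
mmu-miR-19b-3p: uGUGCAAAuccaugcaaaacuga
mmu-miR-92a-3p: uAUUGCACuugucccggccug
The first pair share the seed AAAGUGC and the miR-19 pair share GUGCAAA, while miR-18a and miR-92a each have a seed of their own.

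The promoter of Malat1, the gene with the clearest separation of the groups, is shown as the 300 bases of its RefSeq window, chr19:5802623-5802922 on the minus strand of GRCm38.p6, written 5′ to 3′. The capitals mark the first 50 bases of the gene.
Malat1 promoter: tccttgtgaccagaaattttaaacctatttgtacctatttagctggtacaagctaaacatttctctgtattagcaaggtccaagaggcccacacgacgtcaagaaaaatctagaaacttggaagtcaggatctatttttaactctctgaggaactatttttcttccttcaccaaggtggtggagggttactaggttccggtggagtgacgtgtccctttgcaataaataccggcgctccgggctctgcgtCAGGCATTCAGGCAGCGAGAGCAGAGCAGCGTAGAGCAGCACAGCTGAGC
Both TTCNNNGAA, a motif of the STAT type, and CACGTG, a motif of the MYC type, read the same on either strand, and neither was found in this window. Neither was found in the 4 other windows of the members that RefSeq's table holds, 2 of Gas5 and 1 each of Mir17hg and Kcnq1ot1. The Mir17hg window lies within the miRNA cluster, since it holds the Mir20a and Mir19b-1 hairpins. Over all 32851 promoter windows of the same length, 8.30% held TTCNNNGAA and 7.15% held CACGTG. These matches describe letters in a window and say nothing about binding.

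The reads assigned to the listed genes numbered 46579680, 24733256 and 51934498 in the Stat3β TG libraries and 26805344, 21809788 and 21847953 in the WT libraries. The libraries did not divide by group alone. WT 1 resembled the Stat3β TG libraries more than the other WT libraries, with Spearman correlations over genes of 0.982 to 0.984 with Stat3β TG, against 0.951 with WT 2 and 0.964 with WT 3. Xist, the RNA of the inactive X chromosome, had 19.1 to 71.6 normalized counts in Stat3β TG, while WT 1, 2 and 3 had 42699, 835 and 45196. The sum of 4 Y-linked genes was 8781 to 9465 in Stat3β TG, and 58.8, 11012 and 71.8 in WT 1, 2 and 3. By these genes WT 2 went with the Stat3β TG libraries, while WT 1 and WT 3 stood apart. Labels give no sex, and effects of group and of this split cannot be fully told apart. Stat3, a gene-level value that does not separate Stat3β, had 11129, 9846 and 8034 normalized counts in Stat3β TG, and the WT libraries had 8058, 16112 and 10879. Across all genes limma called 0 of 12642 between the groups, and 771 had an unadjusted p under 0.05 (6.1%), made up of 3.56% higher and 2.54% lower. The same unadjusted threshold was passed by 780 genes with edgeR (6.17%), which called 0, and by 970 with DESeq2 (7.67%).

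The clearest difference among the 6 genes was a lower level of Malat1 in Stat3β TG blasts. Malat1 (Entrez 72289) spans 6983 bases on the minus strand of chromosome 19, from 5795690 to 5802672 in GRCm38. Its normalized counts were 15237, 13119 and 8721 in Stat3β TG 1, 2 and 3, and 25904, 26524 and 42999.9 in WT 1, 2 and 3. Every Stat3β TG library lay below every WT library, and the lowest WT library was 1.70 times the highest Stat3β TG library. Groups were separated in this way in 1364 of 12642 genes (10.8%), 742 of them higher (5.87%) and 622 lower in Stat3β TG (4.92%). The means were 12359 ± 3324 in Stat3β TG and 31809 ± 9696 in WT (SD, n = 3 each). On the log2(normalized count + 1) scale the difference was -1.36, or 2.57-fold lower in Stat3β TG, and 1.03% of the tested genes had a lower value.

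As a share of the reads assigned to the listed genes Malat1 took 0.0489% of Stat3β TG 1 (95% Clopper-Pearson interval 0.0482 to 0.0495%), 0.0431% of Stat3β TG 2 (0.0423 to 0.0439%) and 0.0299% of Stat3β TG 3 (0.0294 to 0.0304%). In WT it took 0.0888% of WT 1 (0.0877 to 0.0899%), 0.0898% of WT 2 (0.0886 to 0.0911%) and 0.140% of WT 3 (0.138 to 0.141%). The intervals cover counting error only and are narrower than the gap between the groups, while those of WT 1 and WT 2 overlap. Summed markers of mature neutrophils were higher in Stat3β TG by a narrow margin (lowest Stat3β TG 349524, highest WT 343078). Summed eosinophil markers overlapped, at 6503 to 12014 in Stat3β TG and 9769.6 to 51354 in WT. The part of either set of markers in the Malat1 difference was not tested. In bulk samples such as these, fewer cells of a type and less RNA per cell cannot be told apart.

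**Figure D1:**
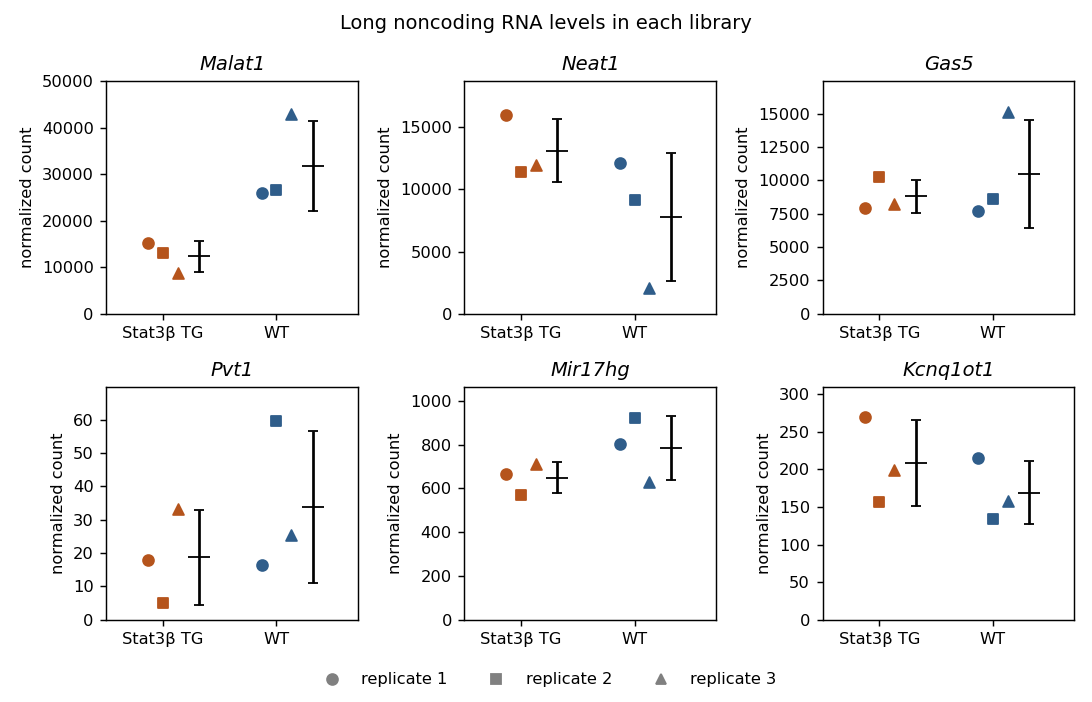
Normalized counts of the 6 long noncoding RNAs in each library, Stat3β TG left and WT right, with a circle, square and triangle for replicates 1, 2 and 3 and a bar for the mean and SD (n = 3). For Malat1 the groups do not overlap, while for the other 5 genes they do, and WT 3 stands apart as lowest for Neat1 and highest for Gas5.

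Neat1 was higher on average in Stat3β TG, but 1 WT library carried much of the difference. It lies 22.0 kb from Malat1 on the same strand (Entrez 66961, chromosome 19, 5824708 to 5845480). Its normalized counts were 16021, 11382 and 11943 in Stat3β TG and 12155, 9136 and 2097 in WT. The groups overlapped, since WT 1 lay above Stat3β TG 2 and 3, and WT 3 lay far below every other library. The means were 13115 ± 2532 in Stat3β TG and 7796 ± 5161 in WT (SD, n = 3 each), a log2 difference of 1.07, and without WT 3 it was 0.30. Gene-level values do not separate the short and long Neat1 isoforms, and only the long one builds paraspeckles.

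The ratio of Malat1 to Neat1 normalized counts, not corrected for length, was 0.951, 1.15 and 0.730 in Stat3β TG and 2.13, 2.90 and 20.5 in WT. All 3 Stat3β TG libraries were below all 3 WT libraries, and WT 3 stood far above the other WT libraries. The ratio was formed after the values of both genes were seen, and it takes up the Malat1 difference that chose the gene. Over the 6 libraries the log2 levels of Malat1 and Neat1 had a Pearson r of -0.72, which was -0.35 without WT 3, so the inverse relation rests in large part on that library.

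Gas5, a short host transcript whose RNA is degraded when translation is active, had similar levels in both groups. Gas5 (Entrez 14455, chromosome 1, 161034601 to 161038539, plus strand) was at 7893, 10222 and 8254 normalized counts in Stat3β TG and at 7661, 8628 and 15134 in WT. The groups overlapped, and WT 3 was the highest library. The log2 difference was -0.20, and 0.10 without WT 3, so its sign depended on that library. The ratio of Gas5 to Malat1 was 0.518, 0.779 and 0.946 in Stat3β TG and 0.296, 0.325 and 0.352 in WT. Its separation takes up the Malat1 difference and is no result about Gas5, whose own groups overlapped.

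Mir17hg, the host of the miRNAs printed above, was at 665, 571 and 714 normalized counts in Stat3β TG and at 803, 921 and 629 in WT. The groups overlapped, with WT 3 inside the Stat3β TG range. The means were 650.02 ± 72.3 in Stat3β TG and 784 ± 147 in WT (SD, n = 3 each), a log2 difference of -0.26. The values come from RefSeq's Mir17hg (Entrez 75957, chromosome 14, 115044390 to 115046728, plus strand), and only 1 of the 6 hairpins, Mir92-1, lies within that span. The separate hairpin genes held 0 to 31 reads each over all 6 libraries, and mature miRNAs were not measured.

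Pvt1, which lies beside the oncogene Myc, was rare. It (Entrez 19296, chromosome 15, 62037986 to 62260215, plus strand) had 27, 4 and 59 reads in Stat3β TG and 15, 44 and 18 in WT, or 18.1, 4.93 and 33.1 normalized counts in Stat3β TG against 16.3, 59.6 and 25.3 in WT. The groups overlapped, and the highest Stat3β TG library was 6.73 times the lowest. The log2 difference was -0.95, and no direction is read from so few reads.

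Kcnq1ot1 (Entrez 63830, chromosome 7, 143213111 to 143296547, minus strand) was at 269, 156 and 199 normalized counts in Stat3β TG and at 215, 134 and 158 in WT. The groups overlapped, and the log2 difference was 0.29, or -0.0841 without both WT 2 and WT 3. It lies inside Kcnq1 on the opposite strand, and the strand handling of the counts is not given in the sources used here. Kcnq1 was at 0 to 3.69 normalized counts in Stat3β TG and 0 to 1.41 in WT, at or under the level of 3 reads, which is 1.69 to 4.22 normalized counts.

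Ordered by level per kilobase of exon, Gas5 and Malat1 led, then Neat1 and Mir17hg, with Pvt1 and Kcnq1ot1 far below. In Stat3β TG the means were 2338 ± 333 for Gas5, 1769.9 ± 476 for Malat1, 631 ± 122 for Neat1, 184 ± 20.5 for Mir17hg, 2.67 ± 2.02 for Pvt1 and 2.24 ± 0.611 for Kcnq1ot1 normalized counts per kb (SD, n = 3). In WT they were 2786 ± 1081 for Gas5, 4555 ± 1389 for Malat1, 375 ± 248 for Neat1, 222 ± 41.5 for Mir17hg, 4.82 ± 3.26 for Pvt1 and 1.82 ± 0.450 for Kcnq1ot1. The ranges of Malat1 and Gas5 overlapped in both groups, those of Pvt1 and Kcnq1ot1 overlapped in Stat3β TG, and those of Neat1 and Mir17hg overlapped in WT. In WT the lowest Pvt1 value per kb was 2.33 and the highest Kcnq1ot1 value was 2.31. The exon lengths used for Mir17hg (3536 bases) and Kcnq1ot1 (93092 bases) exceed the RefSeq spans, 2339 and 83437 bases, so their values per kb are lower than the RefSeq lengths would give. The length used for Gas5, 3760 bases merged over 25 transcripts, takes in most of its span of 3939 bases, introns included. Its values per kb and its place beside Malat1 depend on that length, and a shorter spliced form would give higher values. Among 1869 lncRNA genes with a length, Malat1 ranked 4, 6 and 9 per kb in Stat3β TG and 3, 2 and 2 in WT.

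**Figure D2:**
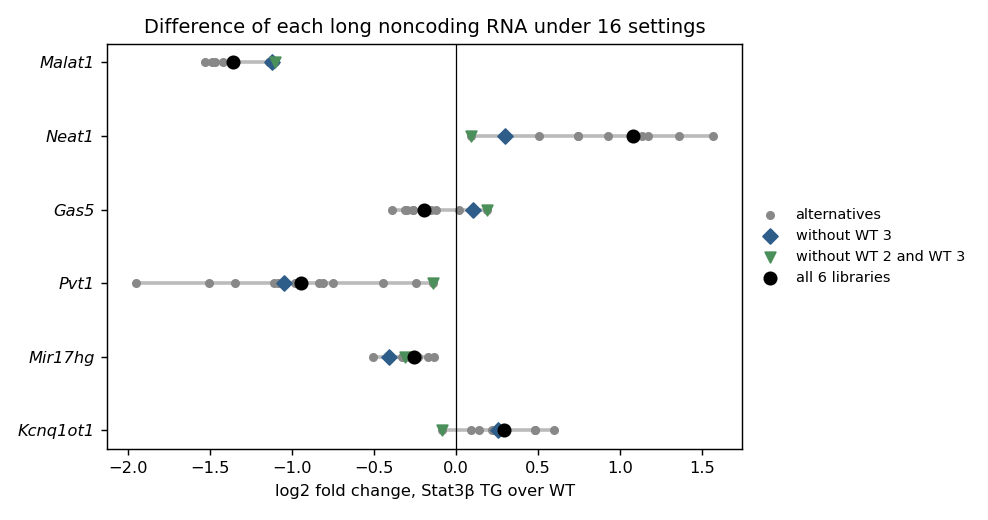
Log2 difference, Stat3β TG over WT, for each of the 6 genes under 16 settings: all 6 libraries (black), without WT 3 (blue diamond), without WT 2 and WT 3 (green triangle) and the other alternatives (grey). Malat1 stays between -1.53 and -1.11, while Gas5 and Kcnq1ot1 cross 0 and Neat1 reaches 0.09.

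The tested lncRNA genes, the 6 described here included, were divided almost evenly. Of 469 tested, 234 were higher and 235 lower in Stat3β TG, and their median log2 difference was -0.00 beside 0.01 over all genes tested. The groups did not overlap in 45 of them (9.59%), with 20 higher (4.26%) and 25 lower (5.33%), beside 10.8%, 5.87% and 4.92% of all genes tested. DESeq2 called 2, which were Malat1 and Xist, and limma and edgeR called 0, with 24 at an unadjusted limma p under 0.05, beside 6.1% of all genes tested. Malat1 was chosen with its call known, so that call is no result about the class. Without the 6 genes, 232 of 463 were higher and 231 lower, and DESeq2 called 1, which was Xist. Of a separate list of 24 tested, named lncRNAs, 12 were higher and 12 lower. Dancr, a host of a small nucleolar RNA studied in stem cells, was at 196, 201 and 183 normalized counts in Stat3β TG and at 349, 261 and 391 in WT, without overlap (limma adjusted p = 0.668). Mirt2 was at 112, 127 and 48.9 in Stat3β TG and at 82.7, 25.7 and 14.1 in WT, with overlap (limma adjusted p = 0.668).

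**Figure D3:**
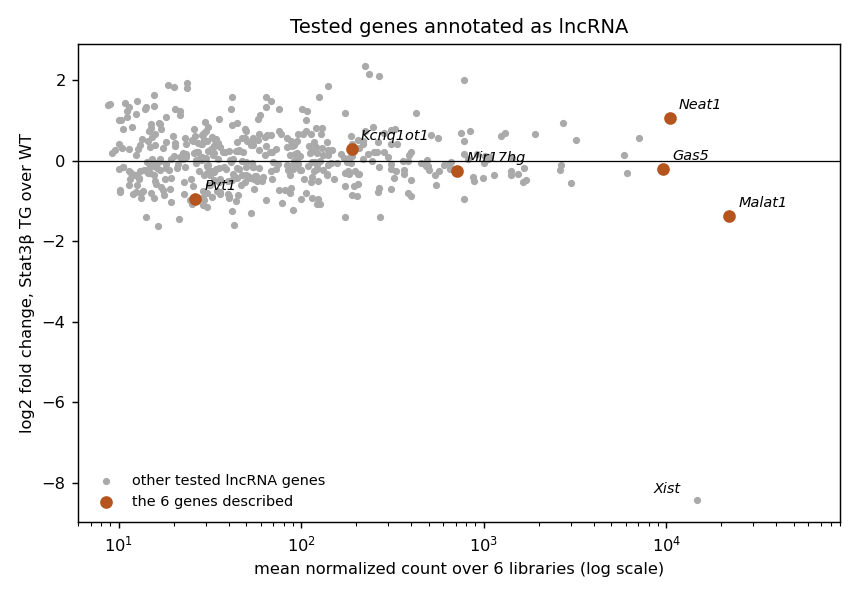
Log2 difference, Stat3β TG over WT, against mean normalized count (log axis) for the 469 tested lncRNA genes, with the 6 described genes in orange. Malat1 has the highest mean of the 469 and a log2 fold change of -1.36, and Xist, at the bottom, follows the split of libraries by sex-linked genes.

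Host genes of small nucleolar RNAs, as Gas5 is, were lower in Stat3β TG in 26 of 26 tested, beside 48.6% of all genes tested. The list held 16 noncoding genes (median log2 fold change -0.41) and 10 protein-coding genes (median -0.20). Over the 26 genes the median was -0.29, with 0 called by limma, edgeR or DESeq2 and 2 at an unadjusted limma p under 0.05. The groups did not overlap in 1 of the 26 (3.85%), lower in Stat3β TG, beside 10.8% of all genes tested and 4.92% lower. That gene, Snhg9, was at 18.7, 24.6 and 27.5 normalized counts in Stat3β TG and at 32.7, 71.8 and 76.0 in WT (limma adjusted p = 0.668). Snhg8 was at 1108, 1560.0 and 1322 in Stat3β TG and at 1468, 1901 and 2436 in WT, with overlap (limma adjusted p = 0.668). WT 3 was the highest library for 18 of the 26, beside 18.4% of all genes tested. Without WT 3 the count was 5 higher and 21 lower, and without both WT 2 and WT 3 it was 18 higher and 8 lower.

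**Figure D4:**
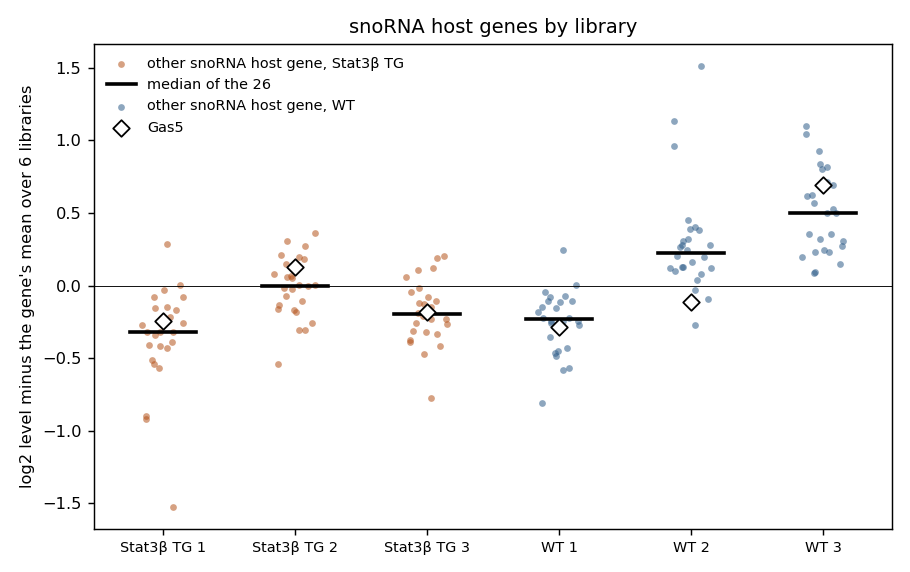
Log2 level of each of 26 tested snoRNA host genes in each library, minus the gene's mean over the 6 libraries, with black bars for the median of the 26 and diamonds for Gas5. The median is -0.32, 0.00 and -0.20 in Stat3β TG 1, 2 and 3, and -0.23, 0.22 and 0.50 in WT 1, 2 and 3, so WT 1 lies with Stat3β TG.

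Genes for proteins of the bodies that Malat1 and Neat1 occupy gave no call. Of 30 nuclear speckle proteins 11 were higher and 19 lower (median log2 difference -0.04), and of 29 paraspeckle proteins 9 were higher and 20 lower (median -0.15). Without WT 3 the speckle list was 15 higher and 15 lower (median 0.00) and the paraspeckle median was -0.07, and without WT 1 the speckle median was -0.12. Limma, edgeR and DESeq2 called 0 genes of either list, and 1 gene, the nuclear matrix protein gene Matr3, had an unadjusted limma p under 0.05. The groups did not overlap in 4 of the 29 paraspeckle genes, all lower in Stat3β TG, beside 4.92% of all genes tested. Of the 30 speckle genes 1 was higher and 1 lower without overlap, beside 5.87% and 4.92% of all genes tested. The splicing factor Sf3a1 was at 5138, 5033 and 4972 in Stat3β TG and at 5343, 7158 and 7120.2 in WT, without overlap (limma adjusted p = 0.668). Cirbp, an RNA-binding protein induced by cold, was at 2134, 4196 and 2452 in Stat3β TG and at 2752, 7564 and 8622 in WT, with overlap (limma adjusted p = 0.668), and its log2 difference was 0.0250 without both WT 2 and WT 3.

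Factors that process or degrade such RNAs gave no call. Of 19 listed for MALAT1 processing and stability 15 were lower (median log2 fold change -0.13), and of 25 of nonsense-mediated decay, the pathway that degrades Gas5, 18 were lower (median -0.10). In 4 of the 19 the groups did not overlap, all lower in Stat3β TG, beside 4.92% of all genes tested. Without both WT 2 and WT 3 the medians were -0.04 and -0.01, with 13 of 19 and 13 of 25 lower, and without WT 3 the median of the decay factors was -0.06. Dis3, a nuclease of the exosome, was at 1702, 1681 and 1685 in Stat3β TG and at 1855, 2288 and 2557 in WT (limma adjusted p = 0.668). Trnt1, the enzyme that adds CCA to tRNA ends, was at 638, 646 and 662 in Stat3β TG and at 720.5, 1075 and 867 in WT (limma adjusted p = 0.668). For Dis3 and Trnt1 WT 1 was the WT library closest to Stat3β TG.

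The genes around Malat1 and Neat1 did not follow Malat1. Of 21 tested 14 lay above WT and 7 below, the median log2 difference was 0.16, and 0 were called. Ltbp3, 37.2 kb away, differed by -0.72 on the log2 scale, and Frmd8, 48.3 kb away, by 0.19. Cdc42ep2, an effector of the small GTPase CDC42, was at 97.0, 55.4 and 67.4 normalized counts in Stat3β TG and at 54.4, 27.1 and 11.3 in WT, without overlap (limma adjusted p = 0.668).

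**Figure D5:**
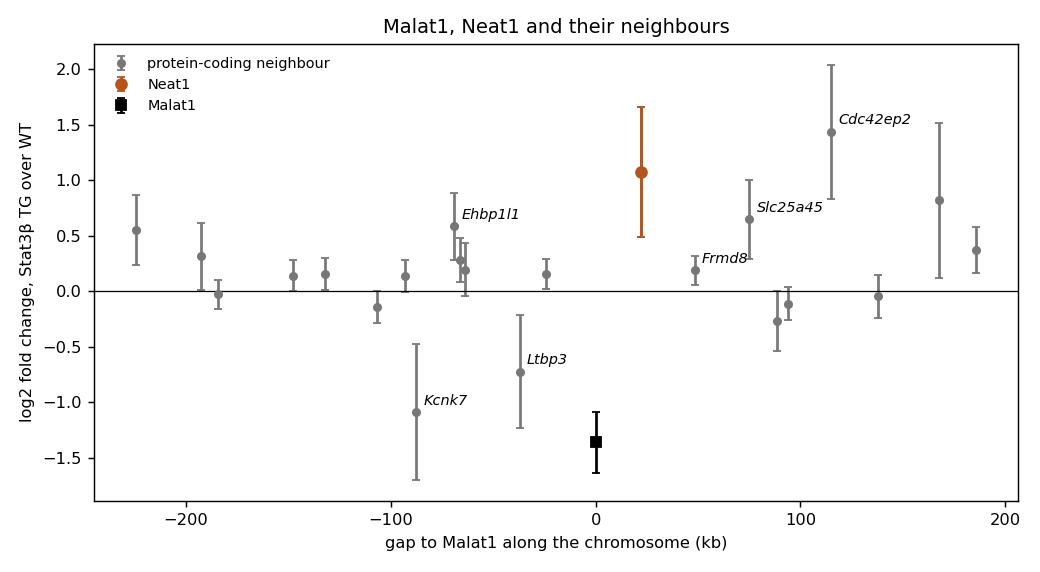
Log2 difference, Stat3β TG over WT (bars: standard error from the fit across all genes) against the gap from Malat1 along the chromosome in kb, for Malat1 (square), Neat1 (orange) and their protein-coding neighbours (grey). Malat1 is at -1.36 and Neat1 at 1.07, and the neighbours scatter on both sides of 0.

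The imprinted domain of Kcnq1ot1 and the surroundings of Pvt1 gave no call either. Of 14 tested genes beside Kcnq1ot1 12 were higher (median log2 difference 0.30), among them the cell cycle inhibitor Cdkn1c at 1004, 1117 and 381 in Stat3β TG and 574, 236 and 587 in WT, with overlap (limma adjusted p = 0.673). Without both WT 2 and WT 3 that count was 8 higher and 6 lower, and without WT 2 the median was 0.16. Of 16 tested genes of the MYC family or beside Pvt1, 10 were higher, with a median of 0.08, or 0.02 without Stat3β TG 2.

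Known targets of the miR-17 family and the E2F factors tied to it gave no call. Of 34 tested 25 were higher and 9 lower, beside 51.4% higher among all genes tested. The median log2 difference was 0.07 and 0 were called. The count was 19 higher and 15 lower without Stat3β TG 1 (median 0.04), and 15 higher and 19 lower against WT 2 alone (median -0.07). Irf2, a repressor of interferon-responsive genes, was at 2095, 2033 and 2229 in Stat3β TG and at 1696, 620.0 and 516 in WT, without overlap (limma adjusted p = 0.668). Limma called Irf2 without WT 1, its WT library closest to Stat3β TG, a setting that called 346 of 12642 genes. Among 7 tested host transcripts of other miRNAs 5 were lower, with a median of -0.18, or -0.09 without WT 3 or without Stat3β TG 3.

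By likeness over the 6 libraries, the genes that varied most as Malat1 did were Rtl6, Kdm6a, Nucb1, Ralgps2 and Naaladl1, with Pearson r of 0.981 to 0.990 among 10268 genes compared. Kdm6a, an X-linked histone demethylase, was at 2177, 1934 and 1770 in Stat3β TG and at 3201, 2910 and 4103 in WT. The part of the split by sex-linked genes in this likeness was not tested. Neat1 varied most like Gzma, a granule protease of cytotoxic lymphocytes, at 258, 117 and 178 in Stat3β TG and 152, 78.5 and 4.22 in WT (r = 0.997). Rpl7, a ribosomal protein gene, was among the 5 genes most like Gas5 (r = 0.989). The first for Kcnq1ot1 was Tmem245 (r = 0.979). For Pvt1 it was Ppp4r3a (r = 0.983), an r that rests on only 4 to 59 reads of Pvt1 per library. These are descriptions over 6 libraries, each picked from among all genes compared for a high r.

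Markers of other cells were counted beside these results. The 5 NK cell markers summed to 202 to 404 normalized counts in Stat3β TG and to 9.85 to 521 in WT, lowest in WT 3, the library low in Neat1. The 6 T cell markers summed to 96.0 to 145 in Stat3β TG and 32.4 to 155 in WT with Cd3e at 0, and the 6 B cell markers to 1227 to 2335 in Stat3β TG and 1248 to 1877 in WT. The 8 mature neutrophil markers summed to 349524 to 478155 in Stat3β TG and to 87733 to 343078 in WT, without overlap. All 8 had a log2 difference above 0, and in 4 the groups did not overlap, beside 5.87% higher without overlap among all genes tested. Camp was highest in WT 1 (74674) and Cxcr2 in WT 2 (772). The 7 markers of stroma and endothelium summed to 5812 to 7210.4 in Stat3β TG and 7383 to 9239 in WT. In WT 2 and WT 3 the stroma sum was raised by Pdgfrb, at 2143, 2013 and 1888 in Stat3β TG and at 2039.6, 4359 and 4917 in WT. WT 1 lay within the Stat3β TG range for Pdgfrb and was the highest library for Pecam1 (5251). Of the 4 tested stroma markers 3 were higher in Stat3β TG. The 6 macrophage markers summed to 12948 to 18875 in Stat3β TG and 4451 to 17460.5 in WT, and the 5 eosinophil markers to 6503 to 12014 in Stat3β TG and 9769.6 to 51354 in WT. Of 4 eosinophil markers tested 3 were lower and 1 higher (median log2 difference -1.40), and DESeq2 called 1, beside 0.135% of all genes. Prg2 alone was without overlap, at 7055, 4094 and 4024 in Stat3β TG and 36893, 8375 and 28343 in WT, beside 4.92% lower without overlap among all genes. The 5 megakaryocyte markers summed to 967 to 2033 in Stat3β TG and 804 to 2529 in WT, and the 6 erythroid markers, with Hbb-bs at 0, to 56.9 to 137 in Stat3β TG and 53.5 to 276 in WT. All 7 markers of MLL-AF9 blasts were detected, at 79425 to 107001 in Stat3β TG and 49502 to 105012 in WT. The part of these cell markers in the Malat1, Neat1 and snoRNA host differences was not tested.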

How the data were processed

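RNA from sorted leukaemic blasts was compared between 3 Stat3β TG and 3 WT libraries, grouped by their titles. The deposited table gives a normalized count per gene and library, a signal with no value below 0. FastQC, STAR and DESeq2 were used with GRCm38 (mm10), per the submitters' processing notes. Versions, the counter, its strand setting and the RNA selection are, in the sources used here, not given. The smallest step between values was the worth of 1 read: 100% of 146724 values were a whole number of steps within 0.001, and reads were recovered this way.

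Symbols for 24376 of 24454 IDs came from RefSeq's gene table for GRCm38.p6, and 78 had none. The low-value filter (10 or more normalized counts, 3 or more libraries) left 12642 genes. Differences are means of log2(normalized count + 1), which understates changes of low genes. The test was limma 3.58.1 (trend, robust, two-sided, Benjamini-Hochberg, threshold 0.05) in R 4.3.3, with edgeR 4.0.16 and DESeq2 1.42.0 on the recovered reads as alternatives. DESeq2 left the adjusted p of 18 genes missing. The fits were tested on simulated data. The pseudocounts 0.5 and 5, no filter, quantile normalization, a replicate block, leaving out each library, leaving out both WT 2 and WT 3, and a comparison with WT 2 alone were the other alternatives.

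The 6 genes and all lists were chosen with earlier results of these data known. The rule named the 6 genes, up to 4 genes per list with the smallest limma p, 5 genes most like each member with a mean of at least 100, Stat3, Xist and 4 Y-linked genes. Some results under the rule are left out of the text. Promoters were matched for 4 of 6 members, without Neat1 and Pvt1. Exon lengths came from GENCODE M21. Intervals and the limit of 3 reads cover counting error only.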

Additional observations from a re-analysis of the deposited data

How the results depend on the processing

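The Malat1 difference was -1.53 to -1.11 on the log2 scale under the 15 alternatives, and -1.53 to -1.12 when each library was left out in turn. Because the groups do not overlap for Malat1, leaving out any library could change only its size and not its sign. Over the same omissions Neat1 ranged from 0.30 to 1.57, Gas5 from -0.39 to 0.10, Pvt1 from -1.51 to -0.24, Mir17hg from -0.41 to -0.13 and Kcnq1ot1 from 0.09 to 0.48. Without both WT 2 and WT 3 Neat1 was at 0.0928 and Kcnq1ot1 at -0.0841. Against WT 2 alone, the WT library like Stat3β TG in its Y-linked genes, Malat1 was at -1.14 and Mir17hg at -0.51. Both settings leave 1 WT library, assumed to vary like the others. Without both WT 2 and WT 3, 8 named genes changed sign: Mlx (-0.0281), Sqle (-0.285), Nadsyn1 (-0.0458), Ehbp1l1 (-0.165), Slc25a45 (-0.157), Dleu2 (-0.193), Cirbp (0.0250) and Taf1d (0.0246). The cause was not tested. Of 44 named list genes, 36 changed sign under none of the 15 alternatives. They were named for a small limma p in these same libraries, which favours a stable sign, and no share over all genes is given.

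The number of genes called was 0 by limma and 17 by DESeq2. It ranged from 0 to 346 when each library was left out, with 346 without WT 1 and 5 without WT 2, and was 740 against WT 2 alone and 9 without both WT 2 and WT 3. The deviations of same-numbered libraries had r of 0.14, 0.10 and -0.11, and those of differently numbered libraries had r of -0.20 to 0.14. Whether the numbers pair the libraries was not tested. With a replicate block limma called 0 genes, Malat1 was at -1.36 and no named list gene changed its call. Depth limits Pvt1, at 4 to 59 reads.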
